A study of Mus musculus with 42 samples.

Results

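The genes described are 9 targets and regulators of the transcription factor NF-kappaB in mouse visceral adipose tissue (VAT): the adhesion molecules Icam1 and Vcam1, the subunits Nfkb1, Nfkb2 and Relb, the inhibitors Nfkbia and Tnfaip3, and the adaptors Birc3 and Traf1. They were picked by symbol, and all 9 are among the 55011 genes of the count table, which holds 42 poly(A) RNA libraries in 15 groups. NF-kappaB dimers are held in the cytoplasm by IkB proteins until receptors for inflammatory cytokines trigger the loss of the inhibitor, after which the dimers enter the nucleus and induce, among many genes, their own inhibitors. In adipose tissue the pathway is known for its part in inflammation, and the adhesion molecules for marking stromal progenitors (Icam1) and for holding leukocytes to vessels and stroma.

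Stromal cells sorted from VAT and labelled VmSC4 or VmSC5, all of genotype Pparg-Tdt, were sequenced after 8 days of adipogenic differentiation (VmSC5 and VmSC4, n = 3 each), after transfer into Kaeda recipient mice (VmSC4-derived VmSC5, n = 3, VmSC5-derived VmSC5, n = 2, and VmSC4-derived VmSC4, n = 3), and fresh from the sorter (VmSC5 and VmSC4, n = 3 each). The floating adipocyte fraction came from Pparg-Tdt:Foxp3-DTR+ mice, whose toxin receptor, driven by the Foxp3 promoter, exposes regulatory T (Treg) cells to killing by diphtheria toxin, and from Pparg-Tdt:Foxp3-DTR- mice given the toxin too (n = 2 each). Adipogenic cultures of VmSC5, again Pparg-Tdt, came in 4 groups of n = 3: with Treg, without Treg, with the cytokine oncostatin M (OSM) at 10 ng/mL, and with PBS. For Treg the series text speaks of medium conditioned by these cells and the titles only of Treg. Treg cells from eVAT were OSMf/f, labelled KO, or OSM+/+, labelled WT (n = 3 each), and the driver of the deletion is not given in the sources used here. Nothing in the labels says whether replicates came from separate mice or cultures, so p-values measure only the spread between these samples.

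Total counts per library ran from 1841664 to 2606360 in the adipogenic cultures, 1967123 to 5044946 in transferred cells, 8527769 to 12514783 in fresh cells, 5932453 to 7490677 in floating cells, 4648878 to 7933682 in the cultures with or without Treg, 1072147 to 2078534 in cultures given OSM or PBS, and 1507163 to 4438234 in Treg cells. Marker lists fitted the labels: 6 fibroblast genes summed to 34102 to 79656 CPM (counts per 1000000 counts of the library) in fresh and transferred cells, 6 adipocyte genes to 28726 to 31407 CPM in the adipogenic cultures and 23321 to 41251 CPM in floating cells, and 7 T cell genes to 4460 to 5350 CPM in Treg cells. Foxp3 stood at 154, 359 and 316 CPM in KO Treg cells and 315, 332 and 294 CPM in WT Treg cells. Osm itself stood at 9.83, 14.6 and 7.76 CPM in KO Treg cells and 29.1, 28.4 and 34.1 CPM in WT Treg cells, lower in every KO library but not at 0. A floating library stood apart: DTR+ replicate 3 was the lowest of the 4 floating libraries for Icam1, Vcam1, Nfkb2, Relb, Tnfaip3, Birc3 and Traf1.

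On the GRCm38 build, the annotation placed Icam1 at chr9:21015985-21028817 on the plus strand, Vcam1 at chr3:116109949-116129688 and Nfkb1 at chr3:135584655-135691547 on the minus strand, and Nfkb2 at chr19:46304320-46312385 on the plus strand. Relb lies at chr7:19606217-19629438, Nfkbia at chr12:55489410-55492647, Tnfaip3 at chr10:19000910-19015657, Birc3 at chr9:7848699-7873186 and Traf1 at chr2:34941750-34961772, all on the minus strand. Each value below is a sum over the annotated gene. Nfkb2 overlaps Psd on the other strand and Nfkb1 holds the predicted gene Gm43430 on its own strand. Psd had at most 87 counts and Gm43430 at most 177 in any library. Overlapping reads of Nfkb2 and Psd cannot be told apart, as the strand setting of the counting is not given in the sources used here. Those of Nfkb1 and Gm43430 cannot be told apart by strand at any setting. In VmSC5-derived VmSC5 replicate 2, Gm43430 had 139 counts and Nfkb1 280.

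Levels split the genes into those highest in Treg cells and those highest in stromal cells. Of the 9 genes, 7 had their highest group mean in Treg cells, and Icam1 and Vcam1 had theirs in VmSC4-derived VmSC5. Among the inhibitors, Tnfaip3, which encodes an enzyme that edits ubiquitin chains and shuts the pathway off, averaged 1923 ± 618 CPM in KO and 2286 ± 335 CPM in WT Treg cells (SD, n = 3 each), while no other group averaged above 65.2 CPM. Nfkbia, which encodes the IkB protein that retains the dimers in the cytoplasm, averaged 1586 ± 162 CPM in KO and 1377 ± 93.3 CPM in WT Treg cells, and between 49.2 and 310 CPM elsewhere. The adaptor gene Traf1, whose product joins TNF receptor complexes, averaged 482 ± 49.6 CPM in KO and 541 ± 27.1 CPM in WT Treg cells, against at most 13.3 CPM in any other group. Differences between Treg cells and the other groups were not tested, because the cells were prepared in other ways and belong to separate experiments. The summed level of 10 genes of dissociation stress (such as Fos and Atf3) was also highest in Treg cells. It averaged 11254 CPM in KO and 11126 CPM in WT, while no other group averaged above 8257 CPM. Fresh VmSC5 averaged 2681 CPM and fresh VmSC4 3422 CPM. The part of this stress in the Treg levels was not tested.

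Vcam1 had the reverse pattern. The gene, whose product binds the integrin made from Itga4 and Itgb1, averaged 289 ± 20.9 CPM in VmSC4-derived VmSC5 and 280 ± 20.5 CPM in fresh VmSC4, but 4.24 ± 2.45 CPM in KO and 0.935 ± 0.593 CPM in WT Treg cells. Icam1, whose product binds the leukocyte integrin made from Itgal and Itgb2, was high in both kinds of cell, with 241 ± 19.6 CPM in VmSC4-derived VmSC5, 147 ± 10.7 CPM in KO and 163 ± 14.8 CPM in WT Treg cells. Its lowest level was in floating cells, at 2.95 ± 2.63 CPM in DTR+ and 3.65 ± 0.151 CPM in DTR- (n = 2 each). Of the integrin partners, Itgal, Itgb2 and Itga4 were highest in Treg cells, and the level of Itgb1 is not given here. Itgal averaged 755 CPM in KO and 756 CPM in WT Treg cells. Itgb2 averaged 810 and 777 CPM, and Itga4 569 and 740 CPM, in the same order. The stromal groups and cultures averaged at most 2.04 CPM for Itgal, 11.3 CPM for Itgb2 and 1.72 CPM for Itga4. Floating cells averaged 5.77 CPM of Itgb2 in DTR+ and 14.7 CPM in DTR-. Their Itga4 averaged 0.467 and 2.25 CPM and their Itgal 0.0667 and 1.24 CPM in that order.

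The subunit genes spanned less. Between the highest and the lowest of the 15 group means, Relb, the subunit of the non-canonical arm, differed 3.58-fold, Nfkb2, its usual partner, 10.0-fold and Nfkb1, the partner of Rela in the canonical arm, 19.0-fold, against 3483-fold for Traf1 and 888-fold for Tnfaip3. The largest of these folds rest on few counts at the low end, since Traf1 had 0, 0 and 1 counts in the VmSC4 adipogenic cultures. When the 15 group means of a gene were put in order, neighbouring groups overlapped in their single libraries in 13 of 14 steps for Relb and Traf1, 12 for Nfkb2, 11 for Nfkb1, 10 for Tnfaip3, 9 for Icam1, 8 for Nfkbia and Birc3, and 6 for Vcam1. Levels of different genes can be compared only per length: per kilobase of annotated exon, Nfkbia was the highest of the 9 genes in all groups, at 155 CPM per kilobase in fresh VmSC5, where Vcam1 followed at 21.8 and Icam1 at 21.5, and Traf1 was lowest at 0.559.

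**Figure D1:**
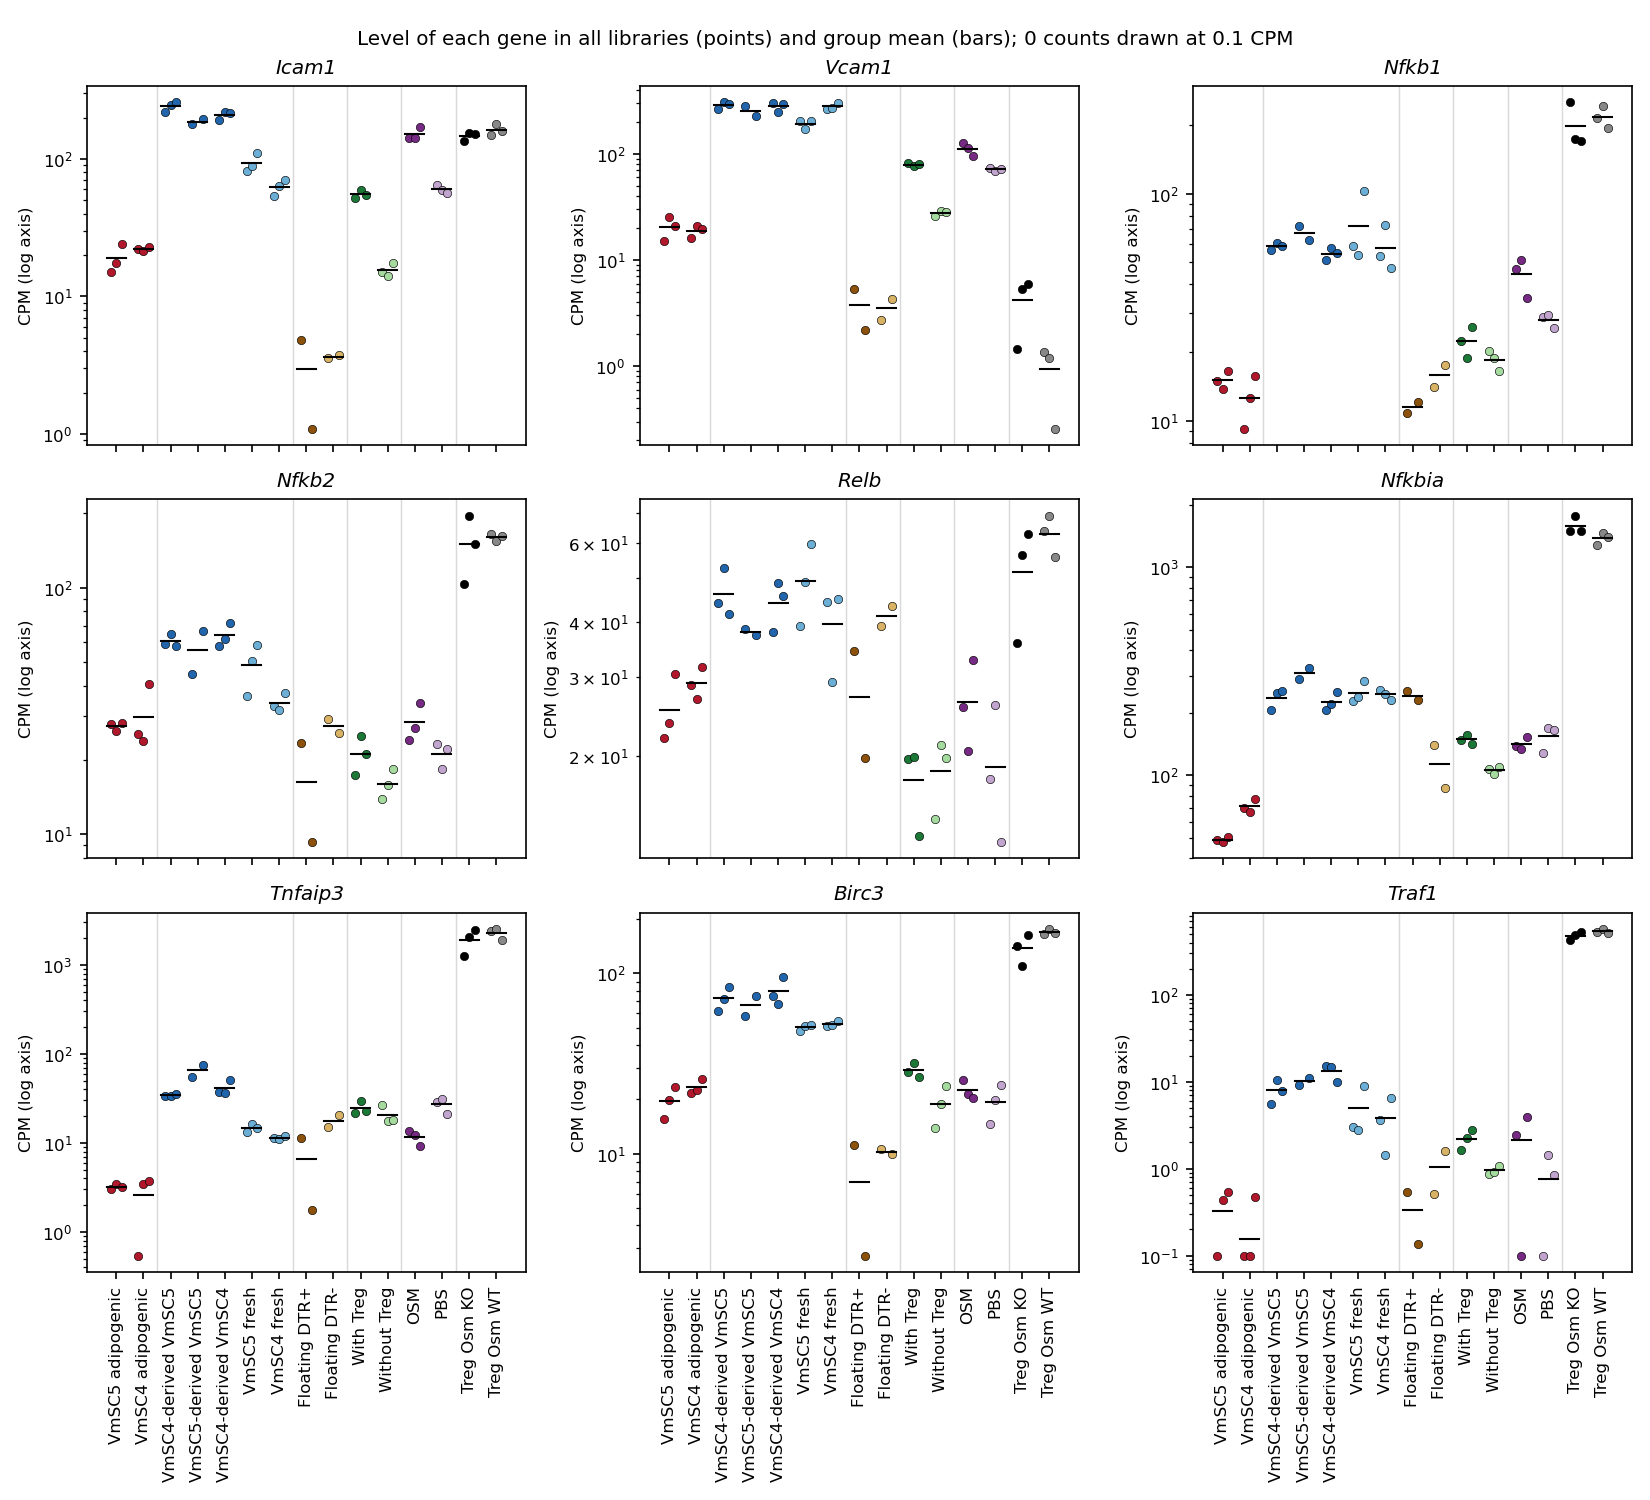
CPM (log axis) of each of the 9 genes in all 42 libraries, 1 panel per gene, with the 15 groups along the x axis. Points are libraries and bars group means, and a library with 0 counts is drawn at 0.1 CPM. By group mean, Treg cells stand highest for 7 genes, such as Tnfaip3 at 1923 CPM in KO and 2286 CPM in WT, and near the bottom for Vcam1. For Relb, libraries of both Treg groups overlap those of fresh VmSC5.

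Over the 15 group means, on the log2(CPM + 1) scale, several regulators moved closely together. Pearson's r between Tnfaip3 and Traf1 was 0.96, between Nfkb2 and Traf1 0.94, and between Nfkbia and Tnfaip3 0.91, whereas Relb and Tnfaip3 had 0.56. Icam1 had r between 0.42 (Relb) and 0.85 (Birc3) with the 7 regulator genes, and Vcam1 between -0.35 (Tnfaip3) and 0.17 (Birc3), with 0.53 between the 2 adhesion molecules. These values describe 15 groups that differ in preparation, depth and cell type, with the 2 Treg groups far from the rest. The genes most like Icam1 across groups were Parp8 (r = 0.97), Soat1 (0.96) and Plscr1 (0.96), those most like Vcam1 included Mmp2 (0.98) and Ssc5d (0.98), those most like Nfkbia were Fnbp1 (0.98), Nsd3 (0.98) and Ddb2 (0.98), and those most like Nfkb2 were Klhl3, Ppp1r15a and Mapkapk3, at r of 0.97, 0.97 and 0.96. None of the genes named here is among the 101 further pathway genes listed for comparison.

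The promoters of 6 of the 9 genes were found in a RefSeq table of the GRCm38.p6 build, with 9 listed starts among them. Those of Icam1, Nfkb2, Nfkbia and Tnfaip3 are printed, the 250 bases before the first listed start, as examples of an adhesion molecule, a subunit and both inhibitors, whose values in the Treg and OSM cultures are given further on. Capitals mark matches, on either strand, to the kappaB consensus, to the shorter kappaB form GGAAANTCC, and to TTCNNNGAA, the palindrome bound by STAT factors, which act downstream of OSM.
Icam1: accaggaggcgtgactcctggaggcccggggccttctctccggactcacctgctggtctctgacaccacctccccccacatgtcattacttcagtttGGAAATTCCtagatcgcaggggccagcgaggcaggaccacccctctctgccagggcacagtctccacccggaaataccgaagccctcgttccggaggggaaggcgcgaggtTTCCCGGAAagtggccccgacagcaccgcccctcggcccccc
Nfkb2: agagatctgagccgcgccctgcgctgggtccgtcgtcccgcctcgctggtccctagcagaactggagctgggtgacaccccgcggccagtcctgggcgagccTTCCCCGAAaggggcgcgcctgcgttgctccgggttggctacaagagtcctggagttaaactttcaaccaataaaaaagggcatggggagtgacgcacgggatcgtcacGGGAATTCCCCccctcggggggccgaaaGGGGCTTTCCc
Nfkbia: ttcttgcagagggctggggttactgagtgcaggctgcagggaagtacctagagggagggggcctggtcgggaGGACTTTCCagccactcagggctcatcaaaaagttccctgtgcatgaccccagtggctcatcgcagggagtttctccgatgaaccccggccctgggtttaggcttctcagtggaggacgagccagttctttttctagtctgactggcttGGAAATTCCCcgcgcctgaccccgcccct
Tnfaip3: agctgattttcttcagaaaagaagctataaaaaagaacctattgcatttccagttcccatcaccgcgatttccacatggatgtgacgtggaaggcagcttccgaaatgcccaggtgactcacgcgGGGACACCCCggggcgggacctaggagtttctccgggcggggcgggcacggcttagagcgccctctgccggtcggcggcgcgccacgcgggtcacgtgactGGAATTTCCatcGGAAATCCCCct

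The windows lie at chr9:21015690-21015939 on the plus strand for Icam1, chr19:46304487-46304736 on the plus strand for Nfkb2, chr12:55492648-55492897 on the minus strand for Nfkbia and chr10:19015411-19015660 on the minus strand for Tnfaip3. Icam1 held the palindrome TTCCCGGAA at 42 to 34 bases before the start and the short kappaB form GGAAATTCC at 153 to 145, with no match to the full consensus. Nfkb2 held 3 consensus matches, 2 of them overlapping at 39 to 29 bases before the start, and the palindrome TTCCCCGAA at 148 to 140. Nfkbia held the consensus at 29 to 20 bases, where the short form overlaps it, and a further short form at 178 to 170. Tnfaip3 held the consensus at 125 to 116 and at 12 to 3 bases and the short form at 24 to 16. Of 32851 windows of that length, 7.25% held the kappaB consensus, 1.07% the short form and 7.02% the palindrome. The windows of Birc3 (chr9:7873171-7873420) and Traf1 (chr2:34961773-34962022), both on the minus strand, held none of the 3 motifs. A match describes letters in the window and shows no binding.

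Both adhesion molecules rose in adipogenic VmSC5 cultures with Treg. With Treg, Icam1 stood at 51.7, 59.5 and 54.7 CPM, against 15.1, 14.1 and 17.4 CPM without Treg. Vcam1 stood at 81.4, 76.7 and 79.9 CPM with Treg and 26.1, 28.7 and 28.6 CPM without. For both genes, all libraries with Treg lay above all without. Icam1 rose by 1.85 ± 0.12 on the log2 scale (SE; adjusted p = 5.02e-16, edgeR's quasi-likelihood test with Benjamini-Hochberg adjustment over all genes, used for all adjusted p that follow) and Vcam1 by 1.53 ± 0.09 (adjusted p = 1.15e-16 in the same edgeR fit). In bulk RNA, fewer cells of a type and less RNA per cell cannot be told apart.

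Of the 9 genes, 6 rose with Treg and none fell, where 22.4% of the 12356 genes tested rose, 21% fell and 43.4% changed in either direction. The median log2 fold change of the 9 genes was 0.50, against -0.00 over all genes tested. Nfkbia stood at 149, 157 and 142 CPM with Treg, against 107, 102 and 110 CPM without, and rose by 0.50 ± 0.07 (edgeR, adjusted p = 1.3e-07), with no overlap. Birc3, which encodes a ubiquitin ligase of the inhibitor-of-apoptosis family, stood at 28.5, 31.8 and 26.7 CPM against 13.9, 18.9 and 23.7 CPM and rose by 0.65 ± 0.14 (edgeR, adjusted p = 0.00039). Nfkb2 (0.42 ± 0.15, edgeR adjusted p = 0.0216) and Traf1 (1.21 ± 0.45, adjusted p = 0.0259) passed narrowly. Nfkb1 (0.28 ± 0.14, adjusted p = 0.109), Tnfaip3 (0.26 ± 0.16, adjusted p = 0.223) and Relb (-0.06 ± 0.17, adjusted p = 0.819) did not pass in edgeR.

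Both narrow calls depended on the method and on single libraries. DESeq2 called neither Nfkb2 (adjusted p = 0.0685) nor Traf1 (0.0986), and without the filter on low counts edgeR did not call Traf1 (0.0563). Nfkb2 did not pass in edgeR without replicate 1 (adjusted p = 0.134) or 2 (0.0645) of the cultures without Treg, or without replicate 2 of those with Treg (0.176), and its libraries overlapped. Traf1, at 1.64, 2.22 and 2.78 CPM with Treg and 0.869, 0.920 and 1.08 CPM without, did not pass without replicate 1 (0.0865) or 2 (0.0778) without Treg or replicate 2 (0.0568) or 3 (0.118) with Treg. Without replicate 1 of the cultures without Treg, which had the highest Tnfaip3 of that group, Tnfaip3 passed at 0.48 (adjusted p = 0.0173), and without replicate 2 with Treg Nfkb1 passed at 0.39 (adjusted p = 0.0378).

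Across the wider pathway, 48 of 71 tested genes rose with Treg and 2 fell. Of 20 other NF-kappaB targets tested, 18 rose and none fell, among them the chemokine genes Ccl5 (22.6 ± 5.4 CPM with Treg, 0.116 ± 0.20 CPM without, log2 fold change 7.37 ± 0.44, edgeR adjusted p = 1.26e-13), Cxcl1 (4.94 ± 0.30, adjusted p = 1.5e-16), Ccl2 (4.88 ± 0.14, adjusted p = 8.06e-17) and Cxcl5. Cxcl5 had no count in any library without Treg and averaged 6.01 CPM with Treg. Of 9 receptors of cytokines and microbial products, 8 rose. All 4 tested members of the IkB family beside Nfkbia rose, including Bcl3, a nuclear partner of the Nfkb1 and Nfkb2 products (9.35 CPM with Treg, 1.64 CPM without, 2.50 ± 0.28, edgeR adjusted p = 1.67e-09). Rela, the main activating subunit, rose by 0.25 (edgeR, adjusted p = 0.0407), while Rel (0.43, adjusted p = 0.257) and Itgb2 (-0.17, adjusted p = 0.568) did not pass. Tnf was too low to be tested and Il1b had no count.

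Other markers moved with Treg too. The 6 adipocyte genes summed to 12672 to 14458 CPM with Treg, against 20655 to 22514 CPM without, and 5 of the 6 fell. The 6 fibroblast genes summed to 5984 to 6856 CPM against 3346 to 3857 CPM, with 5 higher and 1 lower, and the 8 endothelial genes to 44 to 78.1 CPM against 82.8 to 102 CPM, with 1 higher and 1 lower of 7 tested. The 6 mesothelial genes summed to 38.8 to 63.5 CPM with Treg and 20.6 to 22.8 CPM without, with 5 higher and none lower. The 8 macrophage genes summed to 174 to 208 CPM against 264 to 310 CPM, with 4 higher and 1 lower, and the 5 pericyte genes to 36.8 to 39.4 CPM against 73.8 to 76.1 CPM, with 1 lower of 2 tested. The part of these shifts in the rise of Icam1 and Vcam1 was not tested. The 7 T cell genes summed to only 0.695 to 1.13 CPM with Treg and 0.460 to 0.869 CPM without, so RNA of T cells was near 0 in both.

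Under OSM, Icam1 stood at 141, 143 and 170 CPM, against 64.1, 59.7 and 56.3 CPM under PBS, a rise of 1.44 ± 0.13 on the log2 scale (edgeR, adjusted p = 4.2e-13). Vcam1 stood at 126, 115 and 96.6 CPM under OSM and 74.2, 68.8 and 72.5 CPM under PBS, a rise of 0.75 ± 0.14 (edgeR, adjusted p = 1.02e-05). For both genes every OSM library lay above every PBS library. Nfkb1 rose by 0.74 ± 0.21 (edgeR, adjusted p = 0.00284), with 46.5, 51.3 and 34.8 CPM under OSM and 28.6, 29.3 and 25.6 CPM under PBS. Tnfaip3 fell by 1.15 ± 0.28 on the log2 scale (edgeR, adjusted p = 0.000709), with 13.6, 12.1 and 9.20 CPM under OSM against 28.6, 31.3 and 21.3 CPM under PBS, again with no overlap.

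Thus 3 of the 8 tested genes rose under OSM and 1 fell, where 22.8% of the 9825 genes tested rose, 23% fell and 45.8% changed in either direction. The 50% of members called is near the 45.8% of all genes, and the median log2 fold change was 0.55 for the 8 members and 0.00 for all genes. Nfkbia did not pass (142 ± 10.2 CPM under OSM, 154 ± 22.7 CPM under PBS, -0.02 ± 0.12, edgeR adjusted p = 0.93). Nor did Birc3 (0.32 ± 0.26, adjusted p = 0.347 in edgeR), while Nfkb2 (0.56 ± 0.24, adjusted p = 0.0542) and Relb (0.54 ± 0.26, adjusted p = 0.0871) came close, Nfkb2 without overlap between the groups. Nfkb2 passed without OSM replicate 1 (0.68, adjusted p = 0.0331), and Relb without PBS replicate 2 (0.89, adjusted p = 0.0237) or OSM replicate 2 (0.69, adjusted p = 0.045). Traf1 had too few counts to be tested, at 2.41, 0 and 3.94 CPM under OSM and 0, 1.44 and 0.853 CPM under PBS.

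Of 62 further pathway genes tested, 35 rose under OSM and 4 fell, and of 18 other NF-kappaB targets 13 rose and 2 fell. The chemokine gene Cxcl5 averaged 248 ± 20 CPM under OSM and 5.76 ± 1.8 CPM under PBS (5.52 ± 0.19, edgeR adjusted p = 2.09e-29), and the cytokine gene Il6 28.4 ± 6.5 and 0.605 ± 0.53 CPM in the same order (5.36 ± 0.51, adjusted p = 9.45e-13). Nos2, the inducible nitric oxide synthase gene, averaged 37.9 CPM under OSM and had no count under PBS, and Tnfsf11, the gene of the ligand RANKL, averaged 63.5 ± 35 CPM under OSM and had no count under PBS. Bcl3 rose by 2.91 ± 0.32 (edgeR, adjusted p = 1.02e-10) and Itgb2 by 1.13 (adjusted p = 0.0352), while Rela did not pass (0.30, adjusted p = 0.107) and Rel was not tested. The 6 adipocyte genes summed to 945 to 1391 CPM under OSM, against 10868 to 12749 CPM under PBS, with Lep at 0 in both. The 8 endothelial genes summed to 215 to 262 CPM under OSM and 74.9 to 90.4 CPM under PBS, with 6 of 6 tested higher, and the 6 fibroblast genes to 13192 to 15374 CPM against 6080 to 6321 CPM. The 5 pericyte genes summed to 61.0 to 82.1 CPM under OSM and 23.2 to 33.2 CPM under PBS, with 3 of 4 tested higher, and the 10 dissociation stress genes to 790 to 894 CPM against 304 to 347 CPM, with 3 higher and 1 lower of 6 tested. Of 5 mesothelial genes tested, 1 was higher and 4 lower under OSM. The part of these shifts in the changes of Icam1, Vcam1, Nfkb1 and Tnfaip3 was not tested.

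The OSM response was compared with the Treg response in 1 fit of the 4 culture groups, where 32.5% of 12112 genes differed, 15% with a higher and 17.5% with a lower OSM response. Of the 8 members tested, 3 differed, all with the lower response to OSM. Tnfaip3 differed by -1.38 ± 0.33 (edgeR, adjusted p = 0.000814), Vcam1 by -0.74 ± 0.16 (adjusted p = 0.000306) and Nfkbia by -0.48 ± 0.13 (adjusted p = 0.00389). Vcam1 (edgeR adjusted p = 0.0843) and Nfkbia (0.212) did not pass with all 15 groups in 1 fit. The difference for Icam1 was -0.37 ± 0.18 (edgeR, adjusted p = 0.109), and it passed at -0.48 (adjusted p = 0.0428) without OSM replicate 3 and at -0.50 (adjusted p = 0.0255) when libraries were scaled by total count alone. Without OSM replicate 3, Nfkb1 passed as well, with the higher response to OSM (0.65, adjusted p = 0.0498), and so did Relb without PBS replicate 2 (1.01, adjusted p = 0.0314). The PBS cultures already stood above the cultures without Treg for several genes, with Icam1 at 60.0 ± 3.94 against 15.5 ± 1.70 CPM and Vcam1 at 71.8 ± 2.74 against 27.8 ± 1.5 CPM, and the depth of the libraries differed.

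Among the further pathway genes, 15 of 75 had the higher response to OSM and 19 the lower. Mmp9, a matrix protease gene (7.16 ± 1.72, edgeR adjusted p = 0.000987), and Tnfrsf9, a TNF receptor family gene (4.04, adjusted p = 0.000694), were among the higher. Ccl2 (-3.70 ± 0.43, edgeR adjusted p = 7.48e-08) and Tlr3, a receptor of double-stranded RNA (-3.23, adjusted p = 1.79e-06), were among the lower.

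**Figure D2:**
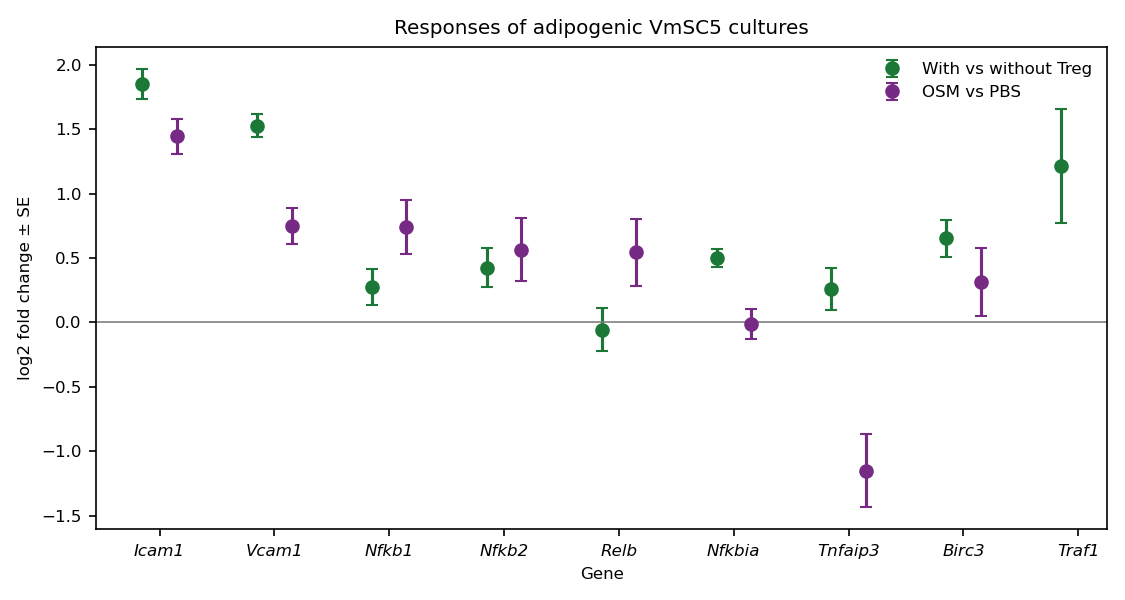
Log2 fold change ± SE (y axis) of each gene (x axis) in VmSC5 cultures with against without Treg (green) and with OSM against PBS (purple), n = 3 libraries per group. Icam1 and Vcam1 rose in both, Nfkbia rose with Treg (0.50) and not with OSM (-0.02), and Tnfaip3 fell with OSM (-1.15). Traf1 was not tested for OSM.

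In adipogenic culture most members fell against fresh cells, and Vcam1 was among those with the largest falls. VmSC5 adipogenic cultures had 15, 25.4 and 20.8 CPM of Vcam1, against 203, 171 and 206 CPM in fresh VmSC5, and VmSC4 adipogenic cultures 16.3, 20.7 and 19.6 CPM, against 267, 271 and 304 CPM in fresh VmSC4. Its fitted log2 fold change was -2.82 ± 0.17 in VmSC5 (edgeR, adjusted p = 2.96e-14) and -3.34 ± 0.17 in VmSC4 (adjusted p = 9.47e-16). Icam1 had 15, 17.6 and 24.0 CPM in VmSC5 cultures against 81.6, 88.9 and 110 CPM fresh, and 22.3, 21.5 and 22.8 CPM in VmSC4 cultures against 54.1, 64.0 and 69.9 CPM fresh. It fell by 1.90 ± 0.19 in VmSC5 (edgeR, adjusted p = 1.67e-09) and by 0.96 ± 0.19 in VmSC4 (adjusted p = 6.4e-05). Scaling matters here: the median log2 fold change of all genes was -0.18 in VmSC5 and -0.23 in VmSC4 with edgeR's TMM factors, and -0.61 in VmSC5 and -0.78 in VmSC4 when libraries were scaled by total count alone.

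In VmSC5, 8 of 9 members fell and none rose, where 37.6% of 13221 genes fell, 33.4% rose and 71% changed in either direction. In VmSC4, 7 of 9 fell and none rose, where 38.5% fell and 70.4% changed. The median log2 fold change of the members was -1.83 in VmSC5 and -1.24 in VmSC4. Nfkbia had 49.0, 47.8 and 50.8 CPM in VmSC5 cultures against 229, 237 and 284 CPM fresh (-1.92 ± 0.13, edgeR adjusted p = 8.6e-13), and 70.0, 66.4 and 77.3 CPM in VmSC4 cultures against 259, 246 and 231 CPM fresh (-1.24 ± 0.13, adjusted p = 2.52e-09). Nfkb1 fell by 1.83 ± 0.27 in VmSC5 (edgeR, adjusted p = 3.89e-06) and by 1.64 ± 0.27 in VmSC4 (adjusted p = 2.28e-05). Tnfaip3 averaged 3.22 ± 0.217 CPM in VmSC5 cultures against 14.8 ± 1.54 CPM fresh, and 2.57 ± 1.76 CPM in VmSC4 cultures against 11.4 ± 0.365 CPM fresh, and Birc3 19.6 ± 4.02 against 50.1 ± 1.97 CPM and 23.5 ± 2.30 against 52.1 ± 1.74 CPM. Both fell in both populations (edgeR, adjusted p of 0.000107 and 0.000821 for Tnfaip3 and 4.73e-05 and 0.00315 for Birc3).

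Traf1 had 2 counts over the 3 VmSC5 cultures against 132 over the 3 fresh libraries, a level 15.6-fold higher in fresh cells (exact 95% interval 4.23 to 130), and 1 count in VmSC4 cultures against 136, 25.4-fold higher in fresh cells (4.47 to 1009). These intervals cover counting error only. The non-canonical subunits had the smallest log2 fold changes: Nfkb2 did not pass in VmSC5 (-0.39 ± 0.21, edgeR adjusted p = 0.0961) or VmSC4 (0.35 ± 0.21, adjusted p = 0.137), where its sign turned to -0.19 with total-count scaling. In VmSC5 it passed with total-count scaling (-0.81, edgeR adjusted p = 0.00114), with no filter on low counts (-0.52, adjusted p = 0.0273) and without fresh replicate 1 (-0.57, adjusted p = 0.0181). Relb fell in VmSC5 (-0.55 ± 0.21, adjusted p = 0.0235) and did not pass in VmSC4 (0.10 ± 0.21, adjusted p = 0.691), where it turned to -0.45 with total-count scaling. The Relb call in VmSC5 was lost without fresh replicate 3 (-0.40, adjusted p = 0.102) or culture replicate 1 (-0.50, adjusted p = 0.0776) or 2 (-0.55, adjusted p = 0.0568).

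Between the cultures, no member differed between VmSC5 and VmSC4 (0 of 9 in edgeR at adjusted p under 0.05, where 0.34% of genes were called and an unadjusted p under 0.05 was reached by 1040). With DESeq2 1 was called, Nfkbia, at -0.57 (adjusted p = 0.0495), where edgeR gave -0.57 ± 0.14 (adjusted p = 0.0853) and every VmSC5 culture lay below every VmSC4 culture. The response to culture itself was lower in VmSC5 than in VmSC4 for Nfkbia (-0.68 ± 0.18, edgeR adjusted p = 0.04), 1 of 9 members where 2.87% of genes differed and 1.01% were lower. That call was lost, with values of -0.55 to -0.74, when any library other than fresh VmSC4 replicate 1 or fresh VmSC5 replicate 1 was left out. Icam1 came close (-0.94 ± 0.27, adjusted p = 0.0546) and passed without fresh VmSC4 replicate 3 (-1.03, adjusted p = 0.0438) or fresh VmSC5 replicate 1 (-1.04, adjusted p = 0.0266). It also passed with DESeq2 (-0.98, adjusted p = 0.0229). In edgeR it passed with RLE scaling (-0.98, adjusted p = 0.0421), no filter on low counts (-0.91, adjusted p = 0.0411) and a replicate block (-0.94, adjusted p = 0.0421). With total-count scaling or all 15 groups in 1 fit it did not pass.

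Of the further pathway genes, 12 of 68 rose and 34 fell in VmSC5 culture, and 12 rose and 32 fell in VmSC4 culture. Sod2, the mitochondrial superoxide dismutase gene and an NF-kappaB target, went the other way from the members, at 924 ± 47 CPM in VmSC5 cultures against 69.7 ± 5.4 CPM fresh (4.15 ± 0.13, edgeR adjusted p = 2.54e-20) and 934 ± 15 CPM in VmSC4 cultures against 71.7 ± 7.2 CPM fresh (4.24 ± 0.13, adjusted p = 1.68e-20). The junction gene F11r rose as well, by 6.67 ± 0.21 in VmSC5 (edgeR, adjusted p = 5.55e-20) and 4.84 ± 0.18 in VmSC4 (adjusted p = 2.02e-18), and so did Alcam, another adhesion gene, by 4.16 in VmSC5 and 5.17 in VmSC4. Tnfaip8 rose by 3.40 in VmSC4 (edgeR, adjusted p = 1.25e-14). Ccl2 fell by 4.44 in VmSC5 (adjusted p = 0.0025). Rela fell by 0.71 in VmSC5 (edgeR, adjusted p = 0.000154), and in VmSC4 by 0.67 (adjusted p = 0.000444). The 6 fibroblast genes all fell in both, to 951 to 1169 CPM in cultures against 34102 to 42325 CPM in fresh cells, and 10 genes of dissociation stress (such as Fos and Atf3) summed to 234 to 280 CPM in cultures against 1899 to 4768 CPM in fresh cells. The part of either shift in the falls of the members was not tested, and culture, lysis and depth cannot be told apart from differentiation.

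After transfer, Icam1 and Tnfaip3 stood above fresh cells. VmSC5-derived VmSC5 had 179 and 194 CPM of Icam1, against 81.6, 88.9 and 110 CPM in fresh VmSC5 (0.94 ± 0.14, edgeR adjusted p = 9.59e-06), and VmSC4-derived VmSC4 192, 221 and 216 CPM, against 54.1, 64.0 and 69.9 CPM in fresh VmSC4 (1.76 ± 0.13, adjusted p = 1.18e-10). Tnfaip3 had 54.7 and 75.7 CPM in VmSC5-derived VmSC5, against 13.3, 16.4 and 14.8 CPM in fresh VmSC5 (2.08 ± 0.20, edgeR adjusted p = 6.71e-09), and 37.3, 36.6 and 50.3 CPM in VmSC4-derived VmSC4, against 11.4, 11.1 and 11.8 CPM in fresh VmSC4 (1.90 ± 0.19, adjusted p = 1.22e-08). In all 4 cases the transferred and the fresh libraries did not overlap.

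In VmSC4-derived VmSC4, 5 of 9 members rose and none fell, where 21.4% of 13947 genes rose, 24.7% fell and 46.1% changed in either direction. Beside Icam1 and Tnfaip3 these were Traf1 (13.3 ± 2.91 CPM transferred, 3.82 ± 2.50 CPM fresh, 1.79 ± 0.48, edgeR adjusted p = 0.0045), Nfkb2 (63.9 ± 7.07 CPM transferred, 34.1 ± 2.82 CPM fresh, 0.94 ± 0.18, adjusted p = 0.000133) and Birc3 (79.3 ± 14.7 CPM transferred, 52.1 ± 1.74 CPM fresh, 0.65 ± 0.15, adjusted p = 0.00135). Vcam1 (281 ± 29.1 CPM transferred, 280 ± 20.5 CPM fresh), Nfkbia, Nfkb1 and Relb did not pass in edgeR, with log2 fold changes between -0.09 and 0.17. In VmSC5-derived VmSC5, 3 of 9 rose and none fell, where 23.9% of genes rose and 46.4% changed in either direction. The third was Vcam1, at 283 and 227 CPM transferred and 203, 171 and 206 CPM fresh (0.35 ± 0.14, edgeR adjusted p = 0.0405). Its call was lost without fresh replicate 1 (0.37, adjusted p = 0.0536), fresh replicate 2 (0.27, adjusted p = 0.135) or VmSC5-derived replicate 1 (0.16, adjusted p = 0.489), with no filter on low counts (0.27, adjusted p = 0.21) and with the 2 compared groups fitted alone (0.36, adjusted p = 0.0512).

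Some members of VmSC5-derived VmSC5 lay near the threshold. Relb (-0.44 ± 0.21, edgeR adjusted p = 0.0907) passed without fresh replicate 1 (-0.59, adjusted p = 0.0263) and Traf1 (0.98 ± 0.52, adjusted p = 0.131) without fresh replicate 3 (1.70, adjusted p = 0.0062), while Birc3 (0.35 ± 0.17, adjusted p = 0.0962) passed only under the replicate block and total-count scaling. Whether the responses of the 2 populations to transfer differ was not tested.

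Of 74 further pathway genes tested, 32 rose and 13 fell in VmSC5-derived VmSC5, and 30 rose and 10 fell in VmSC4-derived VmSC4. Il6 averaged 53.1 ± 7.7 CPM in VmSC5-derived VmSC5 against 0.400 ± 0.32 CPM in fresh VmSC5 (6.94 ± 0.37, edgeR adjusted p = 2.53e-13), and 32.9 ± 5.4 CPM in VmSC4-derived VmSC4 against 2.31 ± 1.0 CPM in fresh VmSC4 (3.86 ± 0.28, adjusted p = 3.79e-11). Cxcl1 averaged 867 ± 74 against 17.2 ± 10 CPM in the VmSC5 pair (5.60 ± 0.45, edgeR adjusted p = 4.8e-06). Cxcl5 and Mmp9 rose in both, and Ncam1, an adhesion gene of the immunoglobulin family, rose by 5.34 ± 0.26 in VmSC4-derived VmSC4 (edgeR, adjusted p = 1.56e-14). Rela fell (-1.10 in the VmSC5 pair, edgeR adjusted p = 2.35e-05, and -1.04 in the VmSC4 pair, adjusted p = 1.27e-05), while Rel rose (2.39, adjusted p = 2.64e-05, and 1.27, adjusted p = 0.0102) and Bcl3 did not pass (0.07 and 0.03). The 10 dissociation stress genes rose with transfer, summing to 7967 to 8548 CPM in VmSC5-derived VmSC5 against 1899 to 3651 CPM in fresh VmSC5 (9 higher, 1 lower), and to 5510 to 6055 CPM in VmSC4-derived VmSC4 against 2508 to 4768 CPM in fresh VmSC4 (7 higher, 1 lower). Their part in the rises of Icam1 and Tnfaip3 was not tested.

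Few members were called among the transferred populations. VmSC4-derived VmSC5 against VmSC4-derived VmSC4 gave 0 of 9 members called in edgeR, where 1.77% of genes were called and 2262 had an unadjusted p under 0.05, and DESeq2 gave 0 as well. Icam1 was nearest, at 220, 245 and 258 CPM against 192, 221 and 216 CPM (0.29 ± 0.13, edgeR adjusted p = 0.275). Against VmSC5-derived VmSC5, 1 of 9 members was called in VmSC4-derived VmSC5, where 1.15% of genes were called and 0.624% were lower: Tnfaip3 fell to 33.8, 33.2 and 35.7 CPM, against 54.7 and 75.7 CPM (-0.86 ± 0.20, edgeR adjusted p = 0.0266). That call was lost without any of the 3 VmSC4-derived VmSC5 libraries (adjusted p = 0.0967, 0.108 and 0.0761 without replicates 1, 2 and 3) or without VmSC5-derived replicate 2 (-0.60, adjusted p = 0.555).

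VmSC5-derived VmSC5 against VmSC4-derived VmSC4 gave 0 of 9 called in edgeR, where 3.41% of genes were called, 1.96% being higher, and 2140 had an unadjusted p under 0.05, and 0 in DESeq2. Nfkbia (310 ± 26.1 against 227 ± 23.2 CPM, 0.46 ± 0.14, edgeR adjusted p = 0.0679) and Tnfaip3 (0.64 ± 0.20, adjusted p = 0.0733) came closest, with every VmSC5-derived library above every VmSC4-derived one. Without VmSC4-derived VmSC4 replicate 3 both passed, at 0.57 (adjusted p = 0.0473) and 0.84 (adjusted p = 0.0371). Of the further pathway genes Ncam1 differed most clearly, at 69.6 ± 4.8 CPM in VmSC4-derived VmSC5 against 20.9 ± 1.5 CPM in VmSC5-derived VmSC5 (1.8 ± 0.24, edgeR adjusted p = 0.000107), and at 77.2 ± 5.4 CPM in VmSC4-derived VmSC4. Nfkbiz, a nuclear IkB gene, was higher in VmSC5-derived VmSC5 than in VmSC4-derived VmSC4 (222 against 101 CPM, 1.14, edgeR adjusted p = 0.0245).

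Fresh VmSC5 and VmSC4 differed in opposite directions for the adhesion molecules. Icam1 had 81.6, 88.9 and 110 CPM in VmSC5, all above the 54.1, 64.0 and 69.9 CPM of VmSC4 (0.67 ± 0.13, edgeR adjusted p = 0.000819). Vcam1 had 203, 171 and 206 CPM in VmSC5, all below the 267, 271 and 304 CPM of VmSC4 (-0.45 ± 0.12, adjusted p = 0.0113 in edgeR). Nfkb2 was higher in VmSC5, at 36.3, 50.4 and 58.3 CPM against 33.2, 31.8 and 37.2 CPM, with overlap (0.60 ± 0.17, edgeR adjusted p = 0.0166). Thus 2 of 9 members were higher and 1 lower, where 7.41% of 13947 genes were higher, 11% lower and 18.4% called in either direction.

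The other 6 members did not pass between the fresh populations, with log2 fold changes between 0.03 and 0.46. The call of Nfkb2 was lost without VmSC4 replicate 2 (0.54, edgeR adjusted p = 0.0573) or VmSC5 replicate 2 (0.58, adjusted p = 0.0537) or 3 (0.46, adjusted p = 0.0911), and that of Vcam1 without VmSC4 replicate 3 (-0.36, adjusted p = 0.0571) or VmSC5 replicate 2 (-0.35, adjusted p = 0.0785). Nfkb1 passed without VmSC4 replicate 2 (0.61, adjusted p = 0.0452) or VmSC5 replicate 2 (0.60, adjusted p = 0.0441), and Relb without VmSC5 replicate 1 (0.57, adjusted p = 0.0332). Of 74 further pathway genes, 12 were higher and 8 lower in VmSC5, with Rela higher (132 ± 5.5 against 97.1 ± 17 CPM, 0.53 ± 0.15, edgeR adjusted p = 0.0145), Tnfaip2 higher (0.76, adjusted p = 0.0256) and Ier3 (-0.96, adjusted p = 0.00822) and the IKK gene Chuk (-0.89, adjusted p = 0.00625) lower. Marker sums differed without overlap too, with 99.4 to 134 CPM in VmSC5 against 59.0 to 81.8 CPM in VmSC4 for the endothelial genes (1 higher and 2 lower of 6 tested). The mesothelial genes summed to 52.1 to 71.5 against 89.1 to 121 CPM (1 lower of 1 tested), and the macrophage genes to 3.81 to 5.53 against 10.2 to 25.1 CPM (2 lower of 3 tested). Only 2 of the 6 mesothelial genes had a count in fresh VmSC5. The part of these marker sums in the differences of Icam1, Vcam1 and Nfkb2 was not tested.

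**Figure D3:**
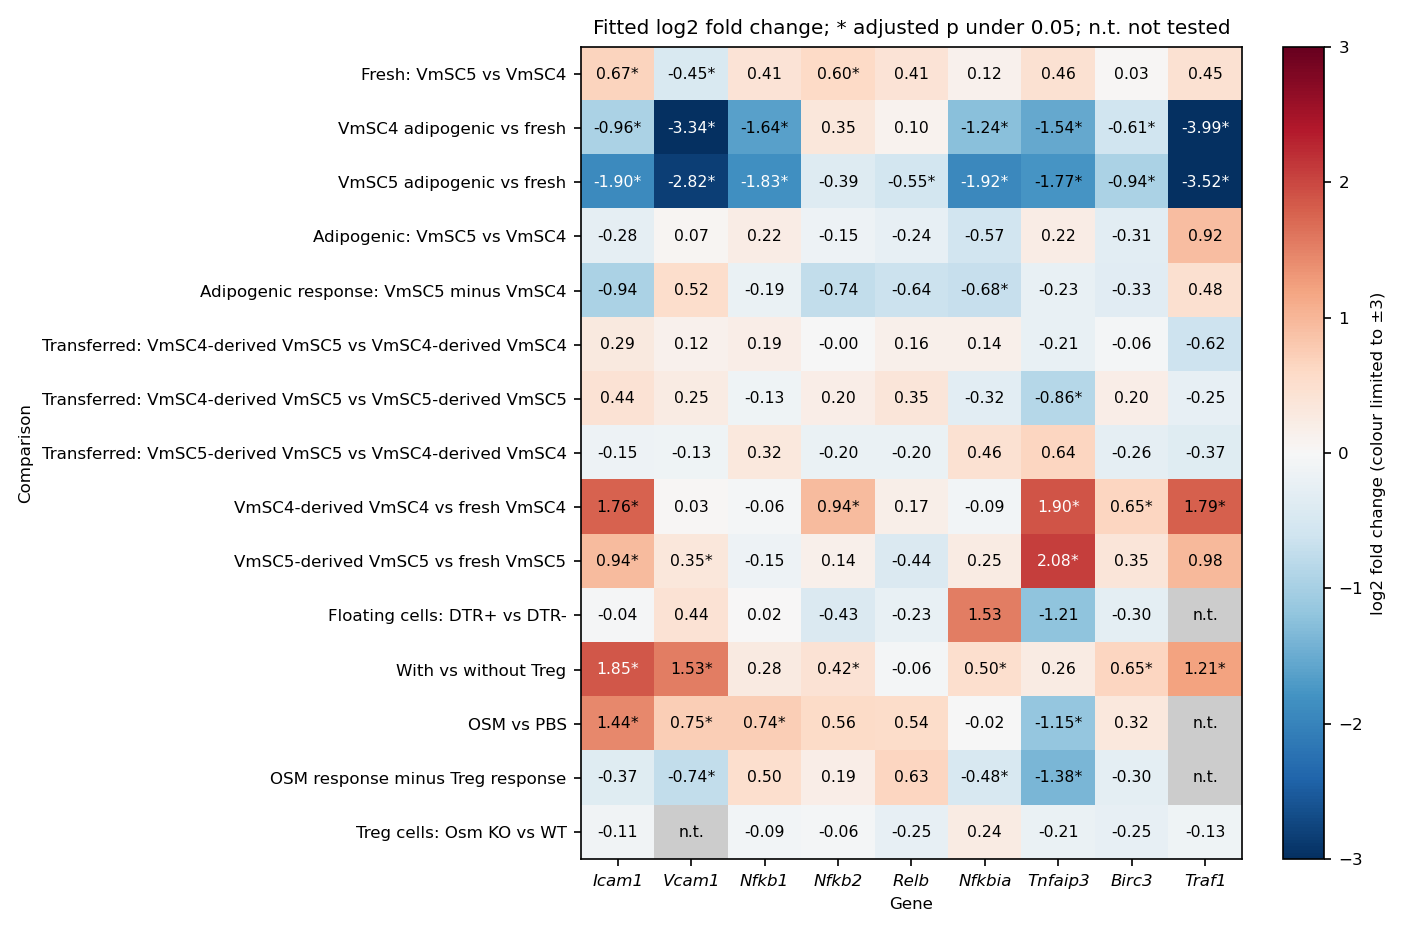
Fitted log2 fold change of each gene (columns) in each comparison (rows, first named group over the second), with colour limited to ±3, a star at adjusted p under 0.05 in edgeR, and n.t. where a gene was not tested. In the 2 rows of adipogenic against fresh cells most values are below 0, such as -3.34 for Vcam1 in VmSC4, where Nfkb2 (0.35) and Relb (0.10) are above 0 without a star.

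Floating cells held little Icam1, Vcam1, Birc3 and Traf1, but not little of every member. Birc3 averaged 6.97 CPM in DTR+ and 10.3 CPM in DTR-, and Traf1 0.335 and 1.06 CPM in that order. Relb averaged 27.0 CPM in DTR+ and 41.3 CPM in DTR-, against 39.5 CPM in fresh VmSC4. Nfkb2 averaged 16.3 CPM in DTR+ and 27.4 CPM in DTR-. Icam1 had 4.81 and 1.09 CPM in DTR+ and 3.54 and 3.75 CPM in DTR-, and Vcam1 5.34 and 2.18 CPM in DTR+ and 2.7 and 4.29 CPM in DTR-. Neither set separated the groups. Nfkbia had 254 and 229 CPM in DTR+, both above the 140 and 87.3 CPM of DTR- (1.53 ± 0.61, edgeR adjusted p = 0.213). Tnfaip3 had 11.3 and 1.77 CPM in DTR+, both below the 15.2 and 20.4 CPM of DTR- (-1.21 ± 0.73, edgeR adjusted p = 0.414).

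In edgeR 0 of 8 tested members were called between DTR+ and DTR-, and 0 in DESeq2, where 2.43% of 11803 genes were called, 0.491% higher and 1.94% lower, and 1940 had an unadjusted p under 0.05. Traf1 was not tested. Without DTR+ replicate 3 Nfkbia was called (1.24, edgeR adjusted p = 0.0113), and without DTR+ replicate 2 Nfkbia (1.79, adjusted p = 9.16e-06) and Tnfaip3 (-2.52, adjusted p = 0.00232). With 1 DTR+ library left, that library is assumed to vary like the DTR- pair. Of the further pathway genes 3 of 71 were higher and 3 lower, among them Ccl2 (25.9 ± 3.9 CPM in DTR+, 4.25 ± 0.053 CPM in DTR-, 3.10 ± 0.71, edgeR adjusted p = 0.0217), Nos2 (-5.56, adjusted p = 0.0105), Jam2 (-3.59, adjusted p = 0.0101) and Pecam1 (-3.99, adjusted p = 0.00932). Of the 8 endothelial markers 7 were lower in DTR+, summing to 20.2 to 49.0 CPM in DTR+ and 453 to 552 CPM in DTR-, and the 8 macrophage genes summed to 99.9 to 148 CPM in DTR+ and 340 to 415 CPM in DTR-. Their part in the levels of the members was not tested. Scaling moved the median of all genes here too: it was -0.04 with TMM factors and -0.40 with total count, and Nfkb1 was at 0.02 and -0.47 under these scalings.

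In Treg cells the Osm genotype went with no called change in the members. In edgeR 0 of 8 tested members were called between KO and WT, and 0 in DESeq2, where 0.0526% of 11416 genes were called, 0.00876% being higher, and 1158 had an unadjusted p under 0.05. Tnfaip3 had 1253, 2046 and 2471 CPM in KO and 2432, 2525 and 1903 CPM in WT (-0.21 ± 0.22, edgeR adjusted p = 0.818), with overlap. Nfkbia had 1491, 1772 and 1494 CPM in KO, all above the 1275, 1458 and 1398 CPM of WT, by less than the test could call (0.24 ± 0.14, edgeR adjusted p = 0.59). Traf1 (-0.13 ± 0.14), Icam1 (-0.11 ± 0.16), Nfkb1 (-0.09 ± 0.18), Nfkb2 (-0.06 ± 0.22), Relb (-0.25 ± 0.26) and Birc3 (-0.25 ± 0.17) had edgeR adjusted p between 0.682 and 0.951. KO replicate 1 stood apart: it was the lowest of the 6 Treg libraries for Icam1, Tnfaip3, Nfkb2 (103 CPM), Relb (35.7 CPM) and Traf1 (430 CPM). It was the highest for Nfkb1 (253 CPM) and not the lowest for Nfkbia or Birc3. The macrophage genes of KO replicate 1 summed to 63.0 CPM, against 3.59 to 14.9 CPM in the other 5 libraries. Without KO replicate 1, 0 of the members were called, and the log2 fold changes of Tnfaip3 and Nfkb2 were 0.044 and 0.17.

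Vcam1 was too low in Treg cells for the filter, with 6, 8 and 20 counts in KO and 6, 4 and 1 counts in WT. The summed counts gave a level 4.00-fold higher in KO, with an exact 95% interval of 1.98 to 8.75 that covers counting error only. Fitted without the filter its log2 fold change was 2.13 (edgeR, adjusted p = 0.669), and in 1 fit of all 15 groups it was 1.98 (adjusted p = 0.0114). The fibroblast genes summed to 4.48 to 22.6 CPM in KO and 5.09 to 12.3 CPM in WT, and their part in the Vcam1 counts was not tested. Of 70 further pathway genes 0 were called, and Tnf (109 CPM in KO, 93.2 CPM in WT), Rela (244 and 220 CPM) and Rel (234 and 238 CPM in the same order) had edgeR adjusted p of 0.744, 0.841 and 0.991.

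**Figure D4:**
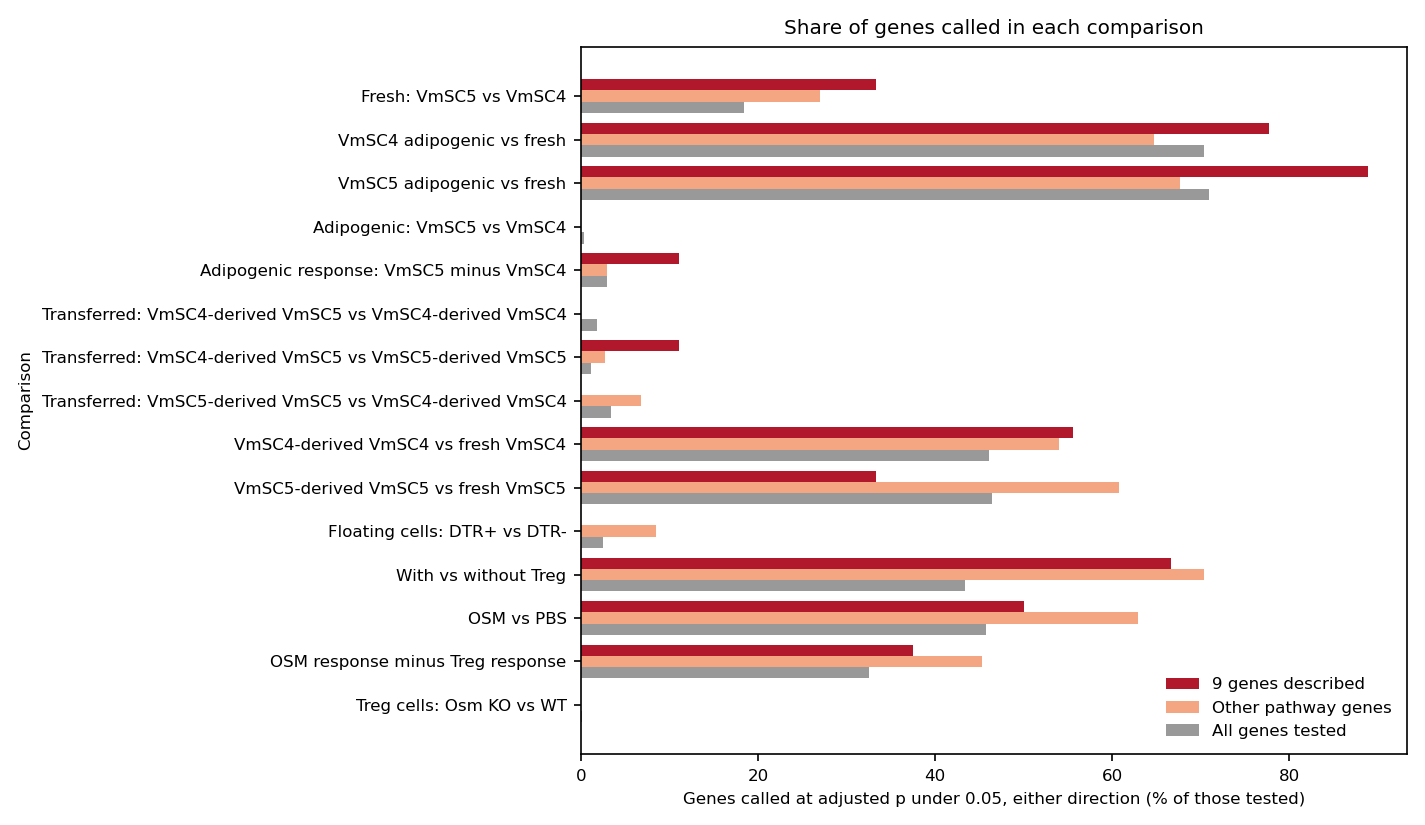
Share of tested genes called at adjusted p under 0.05 in edgeR (x axis, %) in each comparison (y axis), for the 9 members (dark red), the further pathway genes (light red) and all genes tested (grey). With Treg, 66.7% of members and 70.4% of pathway genes were called against 43.4% of all genes, while under OSM the shares were 50%, 62.9% and 45.8%.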

How the data were processed

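The authors deposited raw read counts per gene for all 42 libraries in 1 table. The submitters' processing notes name STAR 2.7.3a, featureCounts and mm10, without their settings. CPM was computed from each count and its library's total. Each experiment was fitted by itself with edgeR 4.0.16 (R 4.3.3): TMM scaling, filterByExpr with a minimum count of 10, robust quasi-likelihood F tests, Benjamini-Hochberg adjustment over all genes tested, and a threshold of 0.05. Fresh cells were fitted once with transferred and once with cultured cells. SE is the size of the log2 fold change over √F. The steps were tested on simulated data. DESeq2 1.42.0, RLE and total-count scaling, no filter, a replicate block, the compared groups alone, all 15 groups together and leaving out each library were the alternatives; total-count scaling and a crossed block were chosen after seeing the data.

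The 9 genes, the 101 pathway genes and the marker lists were chosen with earlier results of these data known. Named pathway genes are the 4 called with the largest change and at least 5 CPM in 1 group, and 8 context genes. Like genes are the 3 with the highest r and at least 20 CPM in 1 group, on log2(CPM + 1). One of them is not reported here. Same-numbered libraries were not paired in the reported fits. In no comparison with 3 pairs did every pair's deviations correlate above 0.1. Between the adipogenic cultures all 3 pairs did correlate best with their own number (r of 0.0861, 0.0957 and 0.0329), so pairing there is not excluded. With only 2 pairs, r for other numbers is the same value with the opposite sign, so it cannot decide on pairing. It was 0.111 between VmSC5-derived VmSC5 and VmSC4-derived VmSC4, 0.0645 for VmSC5 transfer, -0.0221 between VmSC4-derived and VmSC5-derived VmSC5, and -0.413 between DTR+ and DTR-.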

Additional observations from a re-analysis of the deposited data

Results flagged for a closer look

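The responses below differed between populations or treatments by a test of the difference itself, in edgeR's quasi-likelihood test with adjustment over all genes. Nfkbia fell further with adipogenic culture in VmSC5 than in VmSC4, by -0.68 on the log2 scale (adjusted p = 0.04), and all 3 VmSC5 cultures lay below all 3 VmSC4 cultures. That call was lost in 10 of the 12 fits that left out 1 library (adjusted p of 0.0554 to 0.0975), and with no filter on low counts (0.0596), a replicate block (0.0586), total-count scaling (0.0779) or all 15 groups in 1 fit (0.181). Vcam1 responded less to OSM than to Treg, by -0.74 (adjusted p = 0.000306). Nfkbia also responded less to OSM than to Treg, by -0.48 (adjusted p = 0.00389). With all 15 groups in 1 fit, Vcam1 (adjusted p = 0.0843) and Nfkbia (0.212) were not called. PBS cultures already stood above those without Treg, at 71.8 against 27.8 CPM for Vcam1 and 154 against 106 CPM for Nfkbia. The part of these starting levels was not tested. Tnfaip3 differed most, by -1.38 (adjusted p = 0.000814), with all 3 OSM libraries below all 3 PBS libraries and overlap between the cultures with and without Treg. No group had 4 or more libraries, so single libraries were not tested against their group.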

How the results depend on the processing

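Of the 9 genes in 15 comparisons, the numbers called under most alternatives stayed within 1.5 times those reported. With the compared groups alone, 2 genes were called between VmSC4-derived and VmSC5-derived VmSC5 (Icam1 added), 1 between VmSC5-derived VmSC5 and VmSC4-derived VmSC4 (Nfkbia) and 1 between the adipogenic cultures (Nfkbia). DESeq2 called 1 between the adipogenic cultures and 2 in the difference of culture responses (Icam1 and Nfkbia). There RLE scaling called the same 2, total-count scaling 0, and the fit with no filter called Icam1 in place of Nfkbia. With all 15 groups in 1 fit, 0 were called in the difference of culture responses, 2 between DTR+ and DTR- (Nfkbia and Tnfaip3), 2 with Treg (Icam1 and Vcam1), 1 in the difference of OSM and Treg responses (Tnfaip3) and 1 between KO and WT Treg cells (Vcam1).

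Leaving out 1 library at a time gave 0 to 2 called genes between VmSC5-derived VmSC5 and VmSC4-derived VmSC4, 0 to 1 between VmSC4-derived and VmSC5-derived VmSC5, 0 to 2 in the difference of culture responses, 0 to 2 between DTR+ and DTR-, and 3 to 5 in the difference of OSM and Treg responses. The ranges were 2 to 4 between fresh populations and for VmSC5 transfer, 5 to 5 for VmSC4 transfer, 6 to 9 and 6 to 7 for culture of VmSC5 and VmSC4, 4 to 6 with Treg and 4 to 5 with OSM.

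With the replicate number as a block, 1 gene was called between VmSC5-derived VmSC5 and VmSC4-derived VmSC4 (Nfkbia) and 5 for VmSC5 transfer (Birc3 and Traf1 added). In the difference of culture responses the block called 1, Icam1 in place of Nfkbia. It changed no other call. Same-numbered libraries correlated best with each other in all 3 pairs only between the adipogenic cultures (r of 0.0861, 0.0957 and 0.0329). Between DTR+ and DTR- their r was -0.413, which cannot decide on pairing with only 2 pairs, and a crossed block called 0 of the members.

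No called difference changed sign. Of the differences not called, 30 did in some setting. Total-count scaling gave -0.060 for Birc3 between fresh populations, -0.45 for Relb and -0.19 for Nfkb2 in VmSC4 culture, and -0.47 for Nfkb1 between DTR+ and DTR-. The block gave 0.0081 for Nfkb2 between the VmSC4-derived groups and -0.030 for Nfkb1 between DTR+ and DTR-, where the crossed block gave -0.034 and all 15 groups -0.046. No filter gave -0.028 for Vcam1 in VmSC4 transfer and -0.070 for Relb in VmSC4 culture. RLE scaling and DESeq2 gave 0.00077 and 0.0015 for Nfkb1 in VmSC4 transfer, and 0.017 and 0.0085 for Icam1 between DTR+ and DTR-.

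Without 1 library, the log2 fold changes ran as follows. Between fresh populations Traf1 ran from -0.30 to 1.05. Between the VmSC4-derived groups Nfkb2 ran from -0.11 to 0.12, Birc3 from -0.21 to 0.13 and Relb from -0.0014 to 0.21. Nfkb2 ran from -0.069 to 0.52 between VmSC4-derived and VmSC5-derived VmSC5, and from -0.55 to 0.038 between VmSC5-derived VmSC5 and VmSC4-derived VmSC4. In VmSC4 transfer Nfkb1 ran from -0.12 to 0.14, Vcam1 from -0.024 to 0.15, Relb from -0.0092 to 0.34 and Nfkbia from -0.19 to 0.038. In VmSC5 transfer Nfkb2 ran from -0.19 to 0.39 and Nfkb1 from -0.32 to 0.16. In VmSC4 culture Relb ran from -0.087 to 0.21. Between the adipogenic cultures Vcam1 ran from -0.15 to 0.24, Tnfaip3 from -0.19 to 0.50 and Nfkb2 from -0.30 to 0.11. In the difference of culture responses Nfkb1 ran from -0.38 to 0.19, Tnfaip3 from -0.66 to 0.035 and Traf1 from -0.19 to 4.04. Between DTR+ and DTR- Icam1 ran from -0.94 to 0.49, Nfkb1 from -0.46 to 0.41 and Birc3 from -1.12 to 0.21. With Treg Relb ran from -0.21 to 0.11, under OSM Nfkbia from -0.14 to 0.057, and in their difference Nfkb2 from -0.0012 to 0.33. Between KO and WT Treg cells Nfkb2 ran from -0.32 to 0.17, Tnfaip3 from -0.41 to 0.044 and Nfkb1 from -0.28 to 0.017. The cause was not tested in any of these cases. Counts were few for Traf1 in the cultures and for Vcam1 in Treg cells.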
